A study of Mus musculus with 9 samples.

Results

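Gene expression in fibroblasts converted toward GABAergic interneurons (iGABA) was compared with that of interneurons taken from the embryonic mouse cortex (GAD67), gene by gene over the whole transcriptome. The comparison used 6 of the 9 libraries of the series, 3 of iGABA cells (replicates 4, 5 and 6) and 3 of GAD67 cells (replicates 7, 8 and 9), and the table listed 37224 genes, of which 18085 passed a filter on low counts and were tested. The other 3 libraries came from the starting fibroblasts (MEF, replicates 1, 2 and 3) and are used for their levels, given beside the others, and for the estimate of the spread between libraries.

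All samples carry the strain label C57BL/6. iGABA cells had started as passage-0 fibroblasts and were collected at 14 days in vitro of reprogramming, of which 2 were spent in the medium of the fibroblasts. The study is known to have delivered transcription factors, among them Sox2, Dlx5 and Lhx6. GAD67 cells were primary interneurons of the cortex of E18.5 embryos, selected by green fluorescent protein reporting GAD67, the product of Gad1. Both groups were detached with trypsin and sorted for GFP before lysis, but the labels do not say which reporter marked the iGABA cells. MEF cells were fibroblasts of E13.5 embryos, detached and not sorted, and their label also mentions a shift to inducing medium without saying whether it preceded RNA extraction. Cultured converted cells were thus set against cells fresh from tissue, so culture, age and origin differ between the groups together with cell identity and cannot be told apart.

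Cortical interneurons release GABA, which is made by the enzymes GAD67 and GAD65, loaded into vesicles by the carrier VGAT and taken back by transporters of the cell membrane. They are born in the ganglionic eminences of the ventral forebrain, under homeodomain factors of the Dlx family, and migrate into the cortex. Regional factors then separate the medial lineage, which gives somatostatin and parvalbumin cells, from the caudal lineage, which gives most of the remaining classes.

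Library totals were 27501521 to 36799591 counts in iGABA and 35422435 to 38975523 in GAD67. Levels are normalised CPM, counts scaled to a common library size after TMM, and where a library showed no count, up to 3 remain possible, equal to 0.0716 to 0.0938 CPM. Pearson r of log2 levels across genes, which are not independent replicates, was 0.997 to 0.999 among iGABA libraries, 0.994 to 0.998 among GAD67 libraries and 0.824 to 0.827 between the groups. Replicates differed beyond counting noise, with a chi-square of at least 2.41 per gene in iGABA and 6.75 in GAD67. Whether replicates came from separate cultures or animals is not stated in the labels, and p-values measure the spread of these libraries alone, part or all of which may be technical. Mitochondrially encoded genes took 4.36%, 4% and 4.35% of counts in iGABA and 1.2%, 1.16% and 1.4% in GAD67 libraries. The strand setting of the counting is not given in the sources used here, so values of genes whose exons overlap another gene are uncertain. Among the genes named below these are Slc32a1, Aldh5a1, Slc12a5, Wnk3, Six3, Six3os1, Sp9, Dlx1, Dlx6, Maf, Cux2, Prox1, Ebf1, Foxp1, Ppp1r1b, Reln, Gfra1, Nrp1, Syp, Cacnb4, Notch1, Hes5, Pax6, Sox1, Sox21, Ccnd1, Top2a, Hoxb5, Hoxd11, Hotairm1, Bcl11a, Myo3b, Rtl1, Meg3, Nnat, Cldn3, Ttr, Tpi1, Ptbp1, Lin28a, Ctnnb1, mt-Nd1 and mt-Nd5.

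The difference between the groups covered most of the transcriptome. edgeR's quasi-likelihood test called 14536 genes at a Benjamini-Hochberg adjusted p under 0.05, or 80.4% of those tested, and these calls are the background against which each gene list below is read. Of all tested genes, 7441 (41.1%) were higher and 7095 (39.2%) were lower in iGABA than in GAD67 cells. Differences of at least 2-fold made up 4805 of the higher calls (26.6% of tested genes) and 3621 of the lower ones (20.0%). Past 16-fold there were 1279 higher (7.07%) and 666 lower genes (3.68%). All 3 iGABA libraries lay above all 3 GAD67 libraries in 42.1% of tested genes and below them in 40.2%. The median size of the log2 fold change was 0.94 and its signed median 0.02. In 7014 genes (38.8%) the 95% interval of the difference lay within 2-fold, and 4712 of these were nevertheless called, so a call by itself can mark a small difference. At 10 CPM or more there were 10201 genes in iGABA and 9567 in GAD67 cells.

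**Figure D1:**
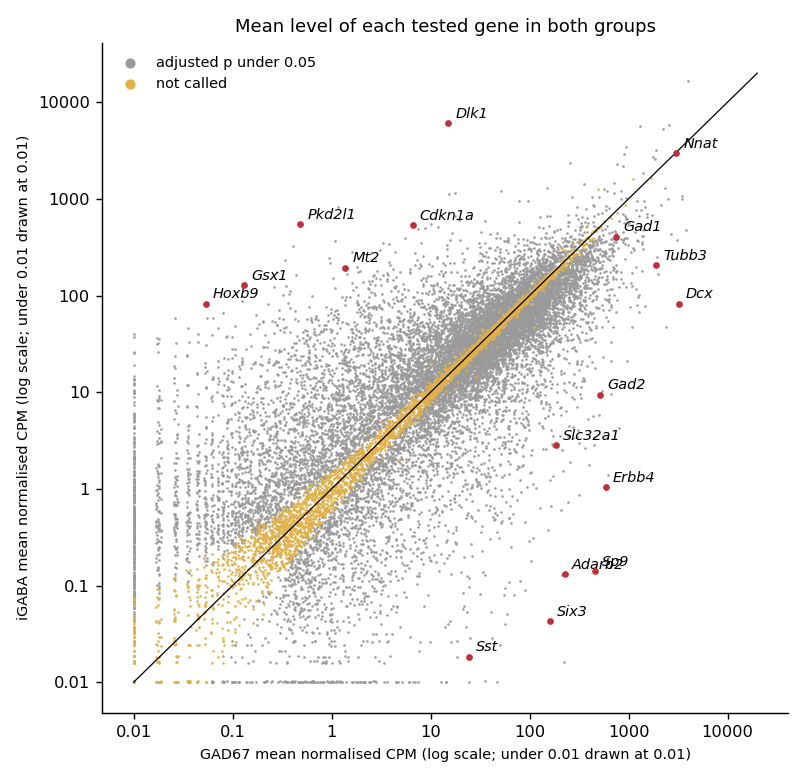
Each point is a tested gene, with its mean normalised CPM over the 3 GAD67 libraries on the horizontal axis and over the 3 iGABA libraries on the vertical axis, both on log scales; the line marks equal levels. Nnat lies on the line at 3045 and 2980 CPM, Dlk1 far above it (15.1 and 6045 CPM) and Sp9 far below it (458 and 0.141 CPM).

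The 52 gene lists, which held 1000 tested genes, spread widely around that background. By median, Hox genes stood highest in iGABA cells, followed by epithelial genes, mesenchymal transcription factors, hindbrain and spinal cord factors and interferon genes. The order after Hox genes changed when members at 0 in a group were set at their bound (3 counts over that group). Interferon genes (4.54) then came before epithelial genes (4.16), mesenchymal factors (3.94) and hindbrain and spinal cord factors (3.55). Apart from red blood cell genes, the lowest lists were the factors of the ventral forebrain, of forebrain position and of the medial and caudal ganglionic eminences. Nuclear respiratory chain genes were higher in 20 of 28 cases, with a small median of 0.40. The synaptic vesicle and granule lists had medians of -0.52 and 0.34 over members that went both ways.

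**Figure D2:**
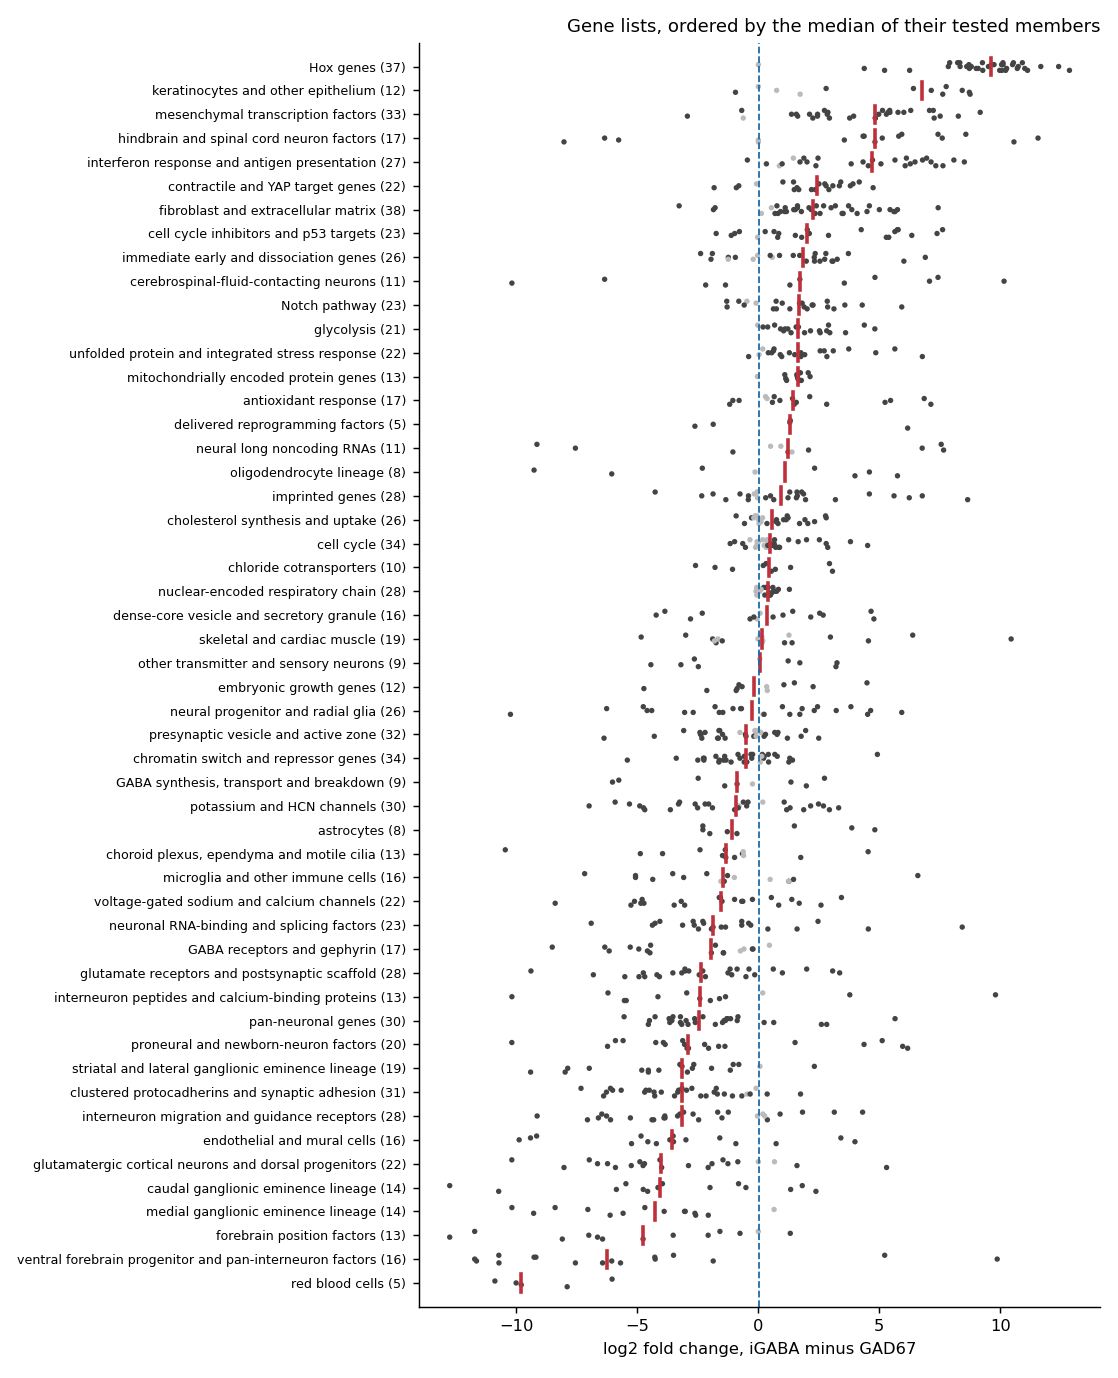
Each point is a tested member of a gene list, placed by its log2 fold change (iGABA minus GAD67); dark points passed the adjusted p of 0.05, pale points did not, red bars are list medians and the dashed line is the median of all tested genes (0.02). Numbers in brackets count tested members. Hox genes have a median of 9.63 and ventral forebrain factors one of -6.24.

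Values of 3 delivered factors are given here, of which Sox2 was above and Lhx6 and Dlx5 were below their level in cortical interneurons. Sox2, which keeps neural progenitors in their stem state (ENSMUSG00000074637, mm10 chromosome 3, 34650005 to 34652461), was at 1015, 1148 and 969.5 CPM in iGABA and 415, 415 and 442 CPM in GAD67 libraries. Its log2 fold change was 1.30 ± 0.07 (SE, adjusted p = 9.50e-10), and every iGABA library lay above every GAD67 library. Lhx6 (ENSMUSG00000026890, mm10 chromosome 2, 36081950 to 36105408), the LIM-homeodomain factor that medial-eminence interneurons keep while they migrate, was at 73.2, 83.2 and 70.1 CPM in iGABA and 466, 445 and 482 CPM in GAD67 libraries, a difference of -2.62 ± 0.07 on the log2 scale. Dlx5 (ENSMUSG00000029755, mm10 chromosome 6, 6877805 to 6882085), a homeodomain factor that activates GABA genes, was at 59.3, 58.4 and 59.5 CPM against 214, 197 and 234 CPM (-1.86 ± 0.06). For Lhx6 and Dlx5 the groups did not overlap, with iGABA lower. Counts per gene hold transcripts of the delivered and of the cells' own copies together.

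Gad2 and Slc32a1 were far below their interneuron level in iGABA cells. Gad1 (ENSMUSG00000070880, mm10 chromosome 2, 70553072 to 70602014), whose product GAD67 makes most of the GABA in the brain, was the gene behind the sort of the cortical cells, so its level is a check of the labels and not a finding. It was at 408, 396 and 412 CPM in iGABA and 752, 717 and 766 CPM in GAD67 libraries, and at 0.544 CPM on average in MEF. Gad2 (ENSMUSG00000026787, mm10 chromosome 2, 22622205 to 22693874), which encodes the terminal enzyme GAD65, was at 8.83, 10.7 and 8.85 CPM in iGABA and 518, 478 and 547 CPM in GAD67 libraries. This is 54.5-fold lower, with a log2 fold change of -5.76 ± 0.10 (adjusted p = 2.43e-14). Slc32a1 (ENSMUSG00000037771, mm10 chromosome 2, 158610767 to 158615748), which encodes the vesicular carrier VGAT, was at 2.79, 3.27 and 2.41 CPM against 189.6, 184 and 183 CPM, 65.7-fold lower. No iGABA library reached the lowest GAD67 library for Gad2 or Slc32a1.

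The steps of GABA breakdown differed in both directions. Abat, the GABA transaminase, was lower in iGABA cells (56.9 ± 4.99 against 149 ± 7.58 CPM, mean ± SD over 3 libraries here and in what follows). Aldh5a1, which finishes the breakdown, was higher (96.7 ± 0.898 against 38 ± 5.34 CPM). So were Aldh9a1, which makes GABA from putrescine-derived aldehydes (73.1 ± 4.06 against 11 ± 0.761 CPM), and Maob (0.805 ± 0.293 against 0.2 ± 0.12 CPM). Of the 9 tested genes of GABA synthesis, transport and breakdown, 5 were lower, 3 higher and Slc6a11 was not called (6.54 ± 0.541 against 7.72 ± 3.42 CPM), with a median log2 fold change of -0.88. Without Gad1, the gene of the sort, 4 were lower and 3 higher, and the median was -0.816. Slc6a11 was called lower without GAD67 replicate 9 (-0.57, adjusted p = 0.000628).

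**Figure D3:**
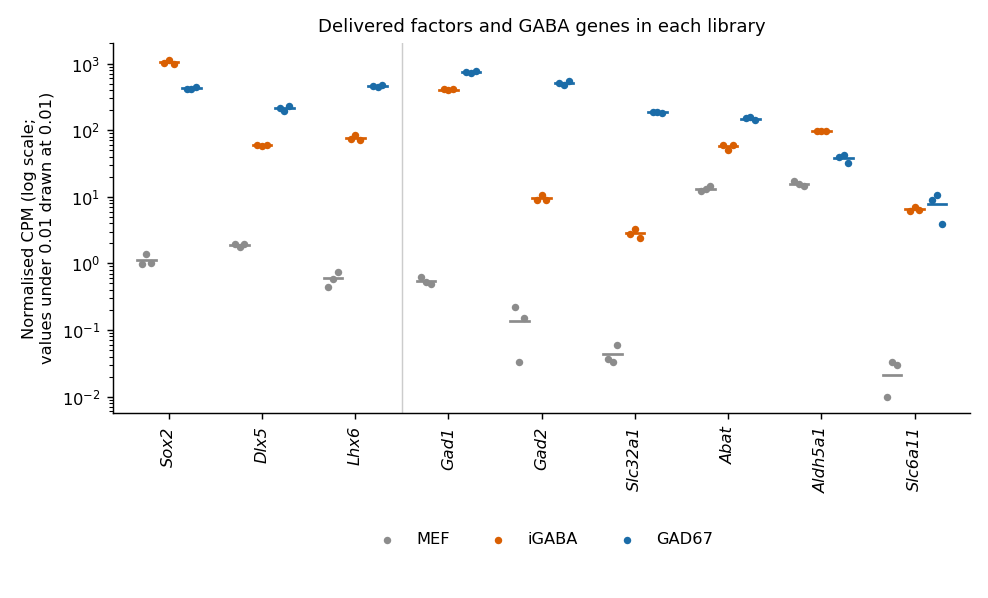
Normalised CPM on a log scale for 3 delivered factors (left of the line) and 6 GABA genes (right), with 1 point for each of the 3 MEF (grey), iGABA (orange) and GAD67 (blue) libraries and a bar at each mean. Gad2 (9.44 CPM in iGABA and 514 in GAD67) and Slc32a1 (2.82 and 186 CPM) lie far apart. Gad1 (405 and 745 CPM) was the gene behind the sort of the cortical cells, so its level is a check of the labels.

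The promoters of Gad1, Gad2 and Slc32a1 are shown because the delivered factors are DNA-binding proteins. With them stand the leading genes in each direction that held a searched motif, Hoxd11 (higher) and Adarb2 (lower). Each sequence is the 250 bases before the gene start in RefSeq (GRCm38.p6), all on the plus strand. The motifs searched, on both strands, were CAGCTG (an E box), TAATTA (a homeodomain core) and ACAATG (Sox). They were in 13%, 4.85% and 10.7% of the 32817 RefSeq windows of that length, respectively. Capitals mark a match.
Gad1, chr2:70561879-70562128: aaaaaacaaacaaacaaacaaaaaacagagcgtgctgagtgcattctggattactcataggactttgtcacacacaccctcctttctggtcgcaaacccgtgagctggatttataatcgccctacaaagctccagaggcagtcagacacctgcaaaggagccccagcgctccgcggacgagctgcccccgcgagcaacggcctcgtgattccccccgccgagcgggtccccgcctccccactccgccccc
Gad2, chr2:22622077-22622326: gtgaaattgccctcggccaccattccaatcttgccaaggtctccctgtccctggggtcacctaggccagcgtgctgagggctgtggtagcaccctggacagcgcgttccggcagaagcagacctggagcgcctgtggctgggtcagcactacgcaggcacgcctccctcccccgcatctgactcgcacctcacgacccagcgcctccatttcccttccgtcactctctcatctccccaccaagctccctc
Slc32a1, chr2:158610508-158610757: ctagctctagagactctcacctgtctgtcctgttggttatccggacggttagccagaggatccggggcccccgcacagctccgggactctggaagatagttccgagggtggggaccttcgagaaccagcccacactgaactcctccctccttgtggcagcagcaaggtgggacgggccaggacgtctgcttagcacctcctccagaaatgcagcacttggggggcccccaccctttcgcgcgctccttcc
Hoxd11, chr2:74679308-74679557: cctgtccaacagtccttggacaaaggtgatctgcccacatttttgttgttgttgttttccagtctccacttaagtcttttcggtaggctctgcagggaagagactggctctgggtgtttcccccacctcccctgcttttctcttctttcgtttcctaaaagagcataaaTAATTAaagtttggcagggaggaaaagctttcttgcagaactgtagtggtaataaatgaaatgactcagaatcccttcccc
Adarb2, chr13:8202616-8202865: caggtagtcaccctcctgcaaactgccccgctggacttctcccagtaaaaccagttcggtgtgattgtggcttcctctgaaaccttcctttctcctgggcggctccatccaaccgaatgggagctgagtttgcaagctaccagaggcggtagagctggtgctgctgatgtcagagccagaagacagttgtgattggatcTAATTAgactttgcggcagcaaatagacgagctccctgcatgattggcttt
None of the 3 motifs was in the Gad1, Gad2 and Slc32a1 windows, and TAATTA began at -81 in Hoxd11 and at -51 in Adarb2, counted from the gene start. The RefSeq start of Gad1 lies 9057 bases from the start of the gene in the count table, so the window belongs to 1 of its starts. Promoter sequences were found for only 67.7% of tested genes, below the 80% set for a comparison of gene sets, and shares of motifs among higher and lower genes are therefore not given.

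Receptors for GABA were nearly all lower in the converted cells. Of 17 tested genes of GABA receptors, their anchor and clustering factors, 14 were lower, none was higher and 3 were not called, with a median log2 fold change of -1.94. Over the 15 members with at least 50 counts in 3 libraries the median was -4.46. Gabrg3, a subunit of the ion-channel receptor, was at 0.0495, 0 and 0.0625 CPM in iGABA and 14.8, 16.2 and 11.2 CPM in GAD67 libraries (-8.51 ± 0.36). Gabrb2, the beta2 subunit, was at 0.408 ± 0.0855 against 33 ± 6.57 CPM. The abundant members were closer: Gabbr1, a subunit of the metabotropic receptor, was at 485 ± 11.3 against 576 ± 11 CPM, and Nlgn2, the adhesion molecule of inhibitory synapses, at 519.7 ± 17.9 against 606 ± 14.8 CPM. Both were called lower under the main scaling, and neither under scaling by library size alone. The call of Gabbr1 was also lost with no low-count filter (adjusted p = 0.0687) and without any 1 of the 6 libraries (-0.23 to -0.27, adjusted p of 0.0692 to 0.114).

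Chloride handling, which sets whether GABA excites or inhibits, stood apart from the receptors, with 7 of 10 members higher and 3 lower. Slc12a5, the neuronal chloride extruder KCC2, was at 33, 35.9 and 34.2 CPM in iGABA and 22.8, 25.3 and 15.2 CPM in GAD67 libraries. Slc12a2, the chloride importer NKCC1, was at 19, 19.5 and 19.2 CPM against 64.8, 61.1 and 73.9 CPM. The extruder was higher and the importer lower in every iGABA library. Slc12a7, a cotransporter also found outside neurons, was 8.35-fold higher (185 ± 6.67 against 22.2 ± 1.1 CPM), and the kinase gene Wnk3 was 6.04-fold lower (14.5 ± 0.147 against 87.3 ± 7.66 CPM).

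Transcription factors that establish ventral forebrain and interneuron identity made up the most divergent neural list. Of 16 tested members, 14 were lower and 2 higher, with a median log2 fold change of -6.24 (-6.22 with members at 0 in a group set at their bound). Six3 was at 0.0495, 0.0478 and 0.0313 CPM in iGABA and 159, 166 and 152 CPM in GAD67 libraries, and its exons overlap those of the antisense gene Six3os1. Sp9, a zinc-finger factor of newborn interneurons, was at 0.0742, 0.191 and 0.156 CPM against 454, 439 and 481 CPM (-11.64 ± 0.18), and Sp8 at 0.124, 0.0716 and 0.188 CPM against 208, 194 and 236 CPM. These levels in iGABA were of the order of those in MEF cells, which had means of 0.0521, 0.552 and 0.191 CPM.

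The Dlx family was present but lower. Dlx1 was at 75.5, 74.7 and 81.8 CPM in iGABA and 1497, 1508 and 1441 CPM in GAD67 libraries, with 0.81 CPM in MEF. Dlx2 was at 47 ± 2.32 against 533 ± 30.1 CPM, and Dlx6 at 3.42 ± 0.154 against 66.2 ± 1 CPM. The iGABA mean of each of these 3 genes stood between the MEF mean and the GAD67 mean. Gsx1 and Gsx2, homeodomain factors of dividing ventral progenitors that act before Dlx, ran the other way. Gsx1 was at 123, 138 and 122 CPM in iGABA and 0.128, 0.238 and 0.0282 CPM in GAD67 libraries, and Gsx2 at 66.5, 62.6 and 74.2 CPM against 1.63, 1.99 and 1.83 CPM. Both were near or at 0 in MEF (0.0796 and 0 CPM).

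Genes of the medial ganglionic eminence were lower in 13 of 14 tested cases, with none higher and a median of -4.29. Nkx2-1, the factor that specifies this eminence, was at 0.0495, 0 and 0.0313 CPM in iGABA and 19.6, 25.1 and 10.9 CPM in GAD67 libraries. Cux2 was the most abundant member in GAD67 but not in iGABA, at 9.65, 10.1 and 9.03 CPM against 668, 576 and 762 CPM. Mef2c, a factor of parvalbumin cell precursors, was at 0.607 ± 0.271 against 207 ± 32.8 CPM. Satb1, an activity-dependent factor of somatostatin cells, and Maf were nearer, at 38.4 ± 0.933 against 161 ± 17.6 CPM and 57.4 ± 2.07 against 345 ± 52.9 CPM.

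Of 14 tested genes of the caudal eminence, 11 were lower and 3 higher, with a median of -4.05. Adarb2, an RNA-editing enzyme homologue that marks the lineage, was at 0.148, 0.119 and 0.125 CPM in iGABA and 241, 205 and 238 CPM in GAD67 libraries. Nr2e1 was at 0 in all 3 iGABA libraries and at 23, 21.1 and 29 CPM in GAD67, at least 924-fold lower against 3 counts over the iGABA group. Prox1 and Nr2f2, nuclear factors that these cells keep, were also called lower but lay nearer the interneuron level. Prox1 was at 83.3 ± 4.66 against 147 ± 19.8 CPM and Nr2f2 at 82.5 ± 7.64 against 118 ± 22.5 CPM. Htr3a, the serotonin-gated channel of caudal interneurons, was at 352, 350.4 and 362 CPM in iGABA and 99.8, 94.2 and 108 CPM in GAD67 libraries. It was higher in every converted library, and so was Id2, an inhibitor of helix-loop-helix factors (198 ± 3.37 against 38.1 ± 3.17 CPM).

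**Figure D4:**
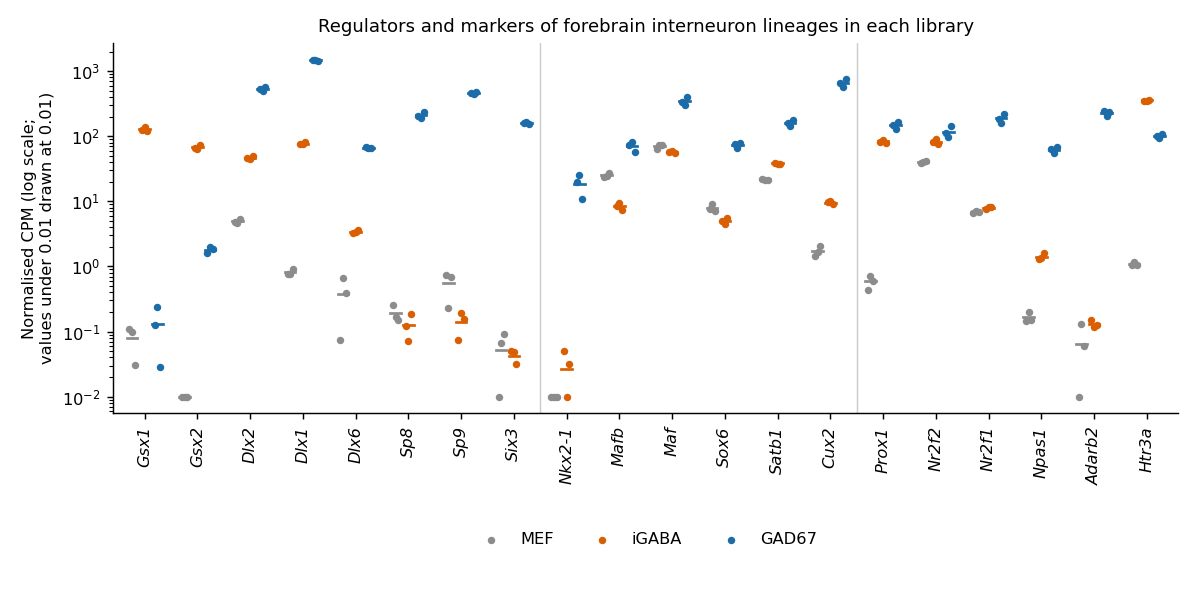
Normalised CPM on a log scale for ventral forebrain factors (left), medial lineage genes (middle) and caudal lineage genes (right), with 1 point for each of the 3 libraries of MEF (grey), iGABA (orange) and GAD67 (blue) and a bar at each mean. Gsx1, Gsx2 and Htr3a lie above GAD67 in iGABA, and Sp8, Sp9, Six3 and Adarb2 lie at 0.191 CPM or less in every iGABA library.

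GAD67 libraries also held genes of the lateral eminence and striatum, and 17 of 19 tested members were lower in iGABA, with 1 higher and a median of -3.15. Adora2a, the adenosine receptor of striatopallidal neurons, was at 0.148, 0.0955 and 0.0938 CPM in iGABA and 78.8, 90.3 and 69.5 CPM in GAD67 libraries. Isl1, a factor of striatal projection neurons, was at 0.25 ± 0.0735 against 64.9 ± 8.25 CPM. Bcl11b, a zinc-finger factor of several projection neurons, was nearer at 294 ± 59.4 against 1124 ± 9.39 CPM. Only Ppp1r1b, the dopamine-signalling protein DARPP-32, was higher in this list (11.9 ± 0.304 against 2.38 ± 1.26 CPM), and Ebf1 was not called.

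Among interneuron peptides and calcium-binding proteins, 10 of 13 tested genes were lower, 2 higher and 1 not called (median -2.42). Sst, the somatostatin gene, was at 0, 0.0239 and 0.0313 CPM in iGABA and at 28, 34.9 and 10.2 CPM in GAD67 libraries, a ratio of 1411 (95% counting interval 390.2 to 11660) in favour of GAD67. The GAD67 libraries themselves spread widely here, with replicate 9 lowest. Npy, neuropeptide Y, was at 11.3, 10.5 and 9.94 CPM against 29, 35.6 and 16.6 CPM. Reln, the secreted guide of layering, was at 0.868 ± 0.193 against 40.0 ± 11.8 CPM. Pvalb, the calcium buffer of fast-spiking cells, which the cortex turns on after birth, was at 2.47, 4.97 and 1.91 CPM in iGABA and at 0 in all GAD67 libraries, at least 121-fold higher against 3 counts over the GAD67 group. Crh was higher as well (1.15 ± 0.258 against 0.0785 ± 0.0497 CPM), and Vip did not pass the filter.

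Migration and guidance genes were lower in 20 of 28 cases, higher in 5 and not called in 3 (median -3.16). Erbb4, the neuregulin receptor that draws interneurons into the cortex, was at 1.26, 0.86 and 1 CPM in iGABA and 612, 506 and 646 CPM in GAD67 libraries (-9.14 ± 0.13). Cxcr4, the receptor that keeps migrating cells in their streams, was at 0.74 to 1.39 CPM in iGABA against 106, 100 and 121 CPM in GAD67 libraries. Dcx, the microtubule protein of migrating neurons, was at 86.1, 84 and 77.2 CPM against 3253, 3043 and 3347 CPM. All 3 were lower in every iGABA library. Cntn2, an adhesion molecule of growing axons, was at 1263, 1469 and 1187 CPM in iGABA and 149, 148 and 148 CPM in GAD67 libraries, and Gfra1, a GDNF co-receptor, at 90.5 ± 10.2 against 4.57 ± 0.611 CPM, both higher in iGABA. Nrp1, Dab1 and Unc5d were not called, but all 3 were called higher under scaling by library size alone, Dab1 also without GAD67 replicate 9 (0.25, adjusted p = 0.0282) and Unc5d without GAD67 replicate 8 (0.38, adjusted p = 0.0159). That scaling also raised the higher calls of the list from 5 to 8.

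Genes common to neurons were mostly lower, whereas the release machinery was mixed. Of 30 pan-neuronal genes, 25 were lower and 5 higher (median -2.45). Tubb3, the neuronal tubulin, was at 203, 201 and 209 CPM in iGABA and 1908, 1912 and 1890 CPM in GAD67 libraries. Mapt, the microtubule protein tau, was at 47.5 ± 1.33 against 1074 ± 48.6 CPM and Rbfox3, which encodes the nuclear marker NeuN, at 2.91 ± 0.675 against 56.6 ± 7.87 CPM. Basp1, a protein of growth cones, had the largest fall at 20.8 ± 1.08 against 972 ± 31.2 CPM. Thy1, found in neurons and in fibroblasts, was at 166, 157 and 169.6 CPM against 3.24, 3.95 and 2.63 CPM, with 409 CPM in MEF.

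Of 32 presynaptic genes, 17 were lower, 9 higher and 6 not called, with a median of -0.52, and the interval of 12 lay within 2-fold. Snap25, the membrane fusion protein, was at 123, 122 and 118 CPM in iGABA and 106, 97.8 and 103 CPM in GAD67 libraries. Syp, the vesicle protein synaptophysin, was at 209, 246 and 196 CPM against 95.2, 98.7 and 90.2 CPM, and Cplx2, complexin 2, at 1028, 1055 and 1045 CPM against 276, 314 and 217 CPM. These 3 were higher in iGABA. Of scaffold genes of the active zone, 3 that were lower are Rims1 at 0.514 ± 0.101 against 43.1 ± 5.26 CPM, Bsn at 61.4 ± 1.254 against 197 ± 11.4 CPM and Pclo at 5.42 ± 0.345 against 46.1 ± 4.67 CPM. Sv2a, a vesicle glycoprotein, and Rph3a, a Rab3 effector, were not called (161 ± 7.6 against 178 ± 26.7 and 156 ± 7.34 against 159 ± 25.4 CPM), but both were called lower without GAD67 replicate 9 (-0.27, adjusted p = 0.00018, and -0.16, adjusted p = 0.019).

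Genes of dense-core vesicles, which release peptides, were higher in 8 of 16 cases, lower in 6 and not called in 2 (median 0.34, or 0.175 without GAD67 replicate 9). Vgf, an activity-regulated granule protein, was at 106, 117 and 109 CPM in iGABA and 3.78, 5.35 and 2.94 CPM in GAD67 libraries. Scg2, a granin, was at 132 ± 14 against 5.21 ± 1.67 CPM, and Pcsk1, a convertase that cuts propeptides, at 37.4 ± 3.14 against 5.85 ± 1.07 CPM. Cpe, the carboxypeptidase that trims the cut ends, was lower at 72.6 ± 1.69 against 362 ± 26.1 CPM.

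On the receiving side, 23 of 28 genes of glutamate receptors and postsynaptic scaffold were lower and 5 higher (median -2.37). Grm5, a metabotropic receptor, was at 0.0989, 0.0478 and 0.0938 CPM in iGABA and 60.6, 80.1 and 25 CPM in GAD67 libraries, and Gria1, an AMPA receptor subunit, at 17.9 ± 2.52 against 463 ± 32 CPM. Grik3, a kainate receptor subunit, was at 1207, 1260 and 1146 CPM against 609.5, 589.8 and 616 CPM, and Homer2, a scaffold protein, at 220.3 ± 9.81 against 21.5 ± 3.51 CPM, both higher in iGABA. Dlg4, the scaffold PSD-95, differed little (257 ± 7.31 against 285 ± 24.5 CPM). It was called lower under TMM scaling and changed direction under scaling by library size alone. Its call was lost without iGABA replicate 4 or 6 or GAD67 replicate 7 or 8 (-0.096 to -0.138, adjusted p of 0.104 to 0.158).

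Ion channel genes also divided. Of 22 sodium and calcium channel genes, 16 were lower and 6 higher (median -1.53). Scn1a and Scn8a, sodium channel subunits of the spike, were at 1.55 ± 0.108 against 43.5 ± 2.75 CPM and 12.2 ± 0.398 against 136 ± 9.72 CPM. Cacnb4 had the largest fall, from 97.7, 73 and 124 CPM in GAD67 to 0.396, 0.167 and 0.313 CPM in iGABA libraries, and Cacna1i, a low-threshold calcium channel, the largest rise, at 81, 80.2 and 85.8 CPM in iGABA against 7.74, 8.16 and 6.97 CPM. Among 30 potassium and HCN channel genes, 19 were lower, 9 higher and 2 not called (median -0.90). Kcnc1, a channel that lets neurons fire fast, was at 491, 485 and 525 CPM in iGABA and 143, 131 and 136 CPM in GAD67 libraries. Kcnt1, a sodium-activated channel, was at 318 ± 5.14 against 31.9 ± 5.49 CPM.

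Adhesion genes of synapses and axons were lower in 27 of 31 cases, higher in 2 (1 without iGABA replicate 6) and not called in 2 (median -3.15). Pcdh9 was at 0.371, 0.215 and 0.344 CPM in iGABA and 50.9, 51.1 and 47 CPM in GAD67 libraries. Nrxn3, a presynaptic neurexin, was at 90.0 ± 9.01 against 604 ± 17.1 CPM. Cdh2, N-cadherin, was at 13.9 ± 2.16 against 345 ± 11.7 CPM. Nfasc, the adhesion molecule of the axon initial segment, was at 515, 561 and 495 CPM against 162, 162 and 147 CPM and higher in iGABA.

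Notch signalling, by which neighbouring progenitors hold each other back from differentiation, was the neural pathway most consistently above the cortical cells. Of 23 members, 17 were higher, 4 lower and 2 not called, with a median log2 fold change of 1.70. Among the ligands, Dll1 was at 392, 398 and 394 CPM in iGABA and 44.4, 39.8 and 51.9 CPM in GAD67 libraries, and Dll3 at 104, 104 and 111 CPM against 9.47, 8.98 and 8.36 CPM. Of the receptors, Notch1 was at 284 ± 10.2 against 70.4 ± 2.52 CPM and Notch2 at 139 ± 3.85 against 29.8 ± 3.74 CPM. Among the targets, Hes1, a repressor of proneural genes, was at 32.6, 32.1 and 36.5 CPM against 0.511, 0.689 and 0.452 CPM, and Hes5 at 8.61 ± 1.01 against 2.45 ± 0.31 CPM. In MEF the mean of Hes1 was higher still, at 67.55 CPM, whereas that of Dll1 was 2.302 CPM. Summed over the list, levels were 1951 to 1985 CPM in iGABA, 816.7 to 831.8 CPM in GAD67 and 1149 to 1267 CPM in MEF libraries. Hes6, Mfng and Lfng were higher too. Rbpj, the DNA-binding partner of the receptors, and the fringe gene Rfng were lower (32.1 ± 1.84 against 48.2 ± 6.78 CPM and 39.9 ± 0.345 against 98.7 ± 4.42 CPM).

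Proneural and newborn-neuron factors were lower in 15 of 20 tested cases and higher in 5 (median -2.92). Insm1, a zinc-finger gene switched on as neurons are born, was at 220.3, 219 and 224 CPM in iGABA and 78.7, 78.9 and 74.4 CPM in GAD67 libraries. Ebf3, a helix-loop-helix factor of differentiating neurons, was at 37.4 ± 1.06 against 0.599 ± 0.223 CPM, with 34.6 CPM in MEF. Sox4 and Sox11, which drive neuronal maturation, were lower at 372 ± 9.5 against 3074 ± 137 CPM and 178 ± 4.42 against 742 ± 48.7 CPM. Myt1l, a repressor of non-neuronal genes, was at 76.6 ± 0.188 against 357 ± 2.5 CPM.

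Of 26 genes of neural progenitors and radial glia, 12 were higher, 13 lower and 1 not called (median -0.25). Nes, the intermediate filament nestin, was at 430.3, 474 and 414 CPM in iGABA and 47.1, 42.7 and 52 CPM in GAD67 libraries, and Sox21 at 195, 212 and 193 CPM against 7.89, 9.38 and 6.8 CPM. Pax6, a factor of dorsal progenitors and olfactory interneurons, was at 0.0247, 0.0955 and 0 CPM against 56.5, 54.1 and 60.6 CPM, and Sox1 at 5.62 ± 0.853 against 436 ± 59 CPM.

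Of 34 cell cycle genes, 18 were higher, 4 lower and 12 not called, and the median was 0.49 (0.312 without iGABA replicate 6). Mki67, a protein of dividing cells, was at 88, 53 and 108 CPM in iGABA and 76.8, 80.7 and 62.4 CPM in GAD67 libraries and was not called (adjusted p = 0.502). Without iGABA replicate 5 its log2 fold change went from 0.18 to 0.42 and was called (adjusted p = 0.0178). Top2a, a topoisomerase of dividing cells, was at 128, 82.9 and 159.5 CPM against 88.1, 92.3 and 80.2 CPM, where the groups overlapped, and its call (log2 fold change 0.51) was lost without any 1 of the libraries other than iGABA replicate 5, at values of 0.29 to 0.55 and adjusted p of 0.0769 to 0.192. The largest rises were in Ccnd1, cyclin D1, at 85.1, 65.6 and 100.1 CPM in iGABA and 3.65, 2.15 and 5.22 CPM in GAD67 libraries and Ccne1, cyclin E1, at 21.2 ± 3.06 against 1.51 ± 0.294 CPM. The largest fall was in Mcm7, a helicase subunit that licenses replication, at 47.7 ± 0.865 against 107 ± 1.5 CPM. iGABA libraries differed among themselves, with a summed level of the list of 832 to 1257 CPM against 709.8 to 792 CPM in GAD67.

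Hox genes, which encode position along the hindbrain and trunk and are silent in the forebrain, separated the groups most. Of 37 tested members, 36 were higher in iGABA and none lower, with a median log2 fold change of 9.63 (9.49 with members at 0 in a group set at their bound). Summed over the list, iGABA libraries had 740.3 to 789 CPM, GAD67 libraries 0.79 to 1.99 CPM and MEF libraries 579 to 597 CPM. Hoxb9, the most abundant, was at 84.7, 86.3 and 76 CPM in iGABA, 0, 0.133 and 0.0282 CPM in GAD67 and 36, 34.5 and 36.9 CPM in MEF libraries. Hoxb5 was at 25.8, 26 and 26.7 CPM in iGABA and at 0 in GAD67, at least 977-fold higher against 3 counts over the GAD67 group, with 3.11, 3.32 and 3.2 CPM in MEF. Hoxc6 was at 40.2, 39.6 and 41.5 CPM in iGABA and had 1 count over the GAD67 libraries. All 4 clusters were on, from group 2 to group 13, and Hoxd13, a gene of limb and tail ends, was at 8.75 ± 0.296 CPM in iGABA against 0.417 ± 0.0827 CPM in GAD67 and 48.7 ± 3.07 CPM in MEF cells. Hoxd1 was at 0 in both groups compared, Hoxb1 did not pass the filter and Hoxd4 was not analysed here.

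**Figure D5:**
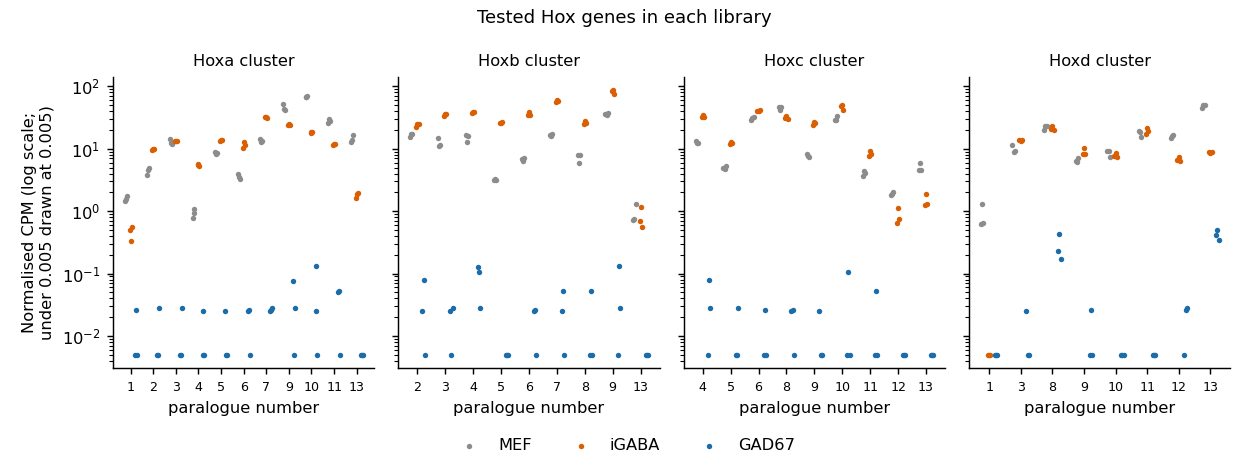
Normalised CPM on a log scale for each tested Hox gene, by cluster and paralogue number, with 1 point for each of the 3 libraries of MEF (grey), iGABA (orange) and GAD67 (blue). iGABA points lie among or above the MEF points for most genes, for example at 82.4 and 35.8 CPM for Hoxb9, and GAD67 points lie at the bottom.

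Long noncoding RNAs of the same clusters followed. Hotair, transcribed from the Hoxc cluster, was at 4 ± 0.157 CPM in iGABA against 0.0174 ± 0.015 CPM in GAD67, and Hotairm1, from the Hoxa cluster, at 6.07 ± 0.616 against 0.0271 ± 0.0265 CPM.

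The factors that mark the forebrain as a region were lower in 11 of 13 tested cases (median -4.76). Lmo3 was at 1.29, 1.46 and 0.969 CPM in iGABA and 161, 162 and 161 CPM in GAD67 libraries, and Bcl11a at 54.7 ± 1.11 against 626 ± 45.2 CPM. Factors of hindbrain and spinal cord neurons were higher in 12 of 17 tested cases, lower in 3 and not called in 2, with a median of 4.82 (3.55 with members at 0 in a group set at their bound). Another 20 of the 37 listed did not pass the filter, so the tested members are not the whole list. Lmx1b was at 31.6, 33.4 and 31.5 CPM in iGABA and at 0, 0.053 and 0 CPM in GAD67 libraries, with 16.5 CPM in MEF. Dbx1, a progenitor factor of ventral interneurons of the cord, was at 10.5, 12.8 and 8.56 CPM in iGABA and 0 in GAD67 and MEF, at least 404-fold higher than GAD67 against 3 counts over the group. Gata2, a factor of GABAergic neurons of midbrain and cord, was at 48.7, 43.6 and 55.9 CPM against 0.357, 0.212 and 0.282 CPM, with 2.08 CPM in MEF.

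Pkd2l1, a channel known from GABAergic neurons that contact cerebrospinal fluid around the spinal canal, was at 553, 524 and 571 CPM in iGABA libraries and at 0.281, 0.848 and 0.311 CPM in GAD67 libraries, and at 0.235 CPM in MEF. Its log2 fold change was 10.15 ± 0.20 (adjusted p = 2.58e-12). Of the other 10 tested markers of that cell class, 6 were higher and 4 lower. Higher were Myo3b at 14.4 ± 1.75 against 4.4 ± 0.725 CPM and Espn at 1.66 ± 0.274 against 0.00851 ± 0.0147 CPM. P2rx2, an ATP receptor of those cells, was lower at 0.904 ± 0.0362 against 2.31 ± 0.952 CPM. The largest fall of the list was in Sst, at 0.0184 ± 0.0163 against 24.35 ± 12.8 CPM (-10.18 on the log2 scale). Of 9 tested genes of other transmitters, 4 were higher, 4 lower and 1 not called. Slc18a2, the vesicular monoamine transporter, was lower in iGABA (8.05 ± 1.01 against 44.8 ± 14.6 CPM) and Ache, acetylcholinesterase, higher (38.3 ± 4.06 against 4.14 ± 0.623 CPM).

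Matrix genes of fibroblasts were above the cortical cells but far below the starting fibroblasts. Of 38 members, 33 were higher, 3 lower and 2 not called, with a median of 2.26. The summed level was 2749 to 3384 CPM in iGABA and 1130 to 1215 CPM in GAD67 libraries, beside 134000 to 147800 CPM in MEF. Col1a1, the main collagen, was at 255, 205 and 289.7 CPM in iGABA and 85.4, 81.7 and 77.4 CPM in GAD67 libraries, with 38860 CPM in MEF. Lgals1, galectin 1, had the largest difference at 278, 271 and 288 CPM against 1.81, 1.85 and 1.16 CPM. Vcan, a proteoglycan that developing brain also makes, was lower at 48.1 ± 2.28 against 465 ± 32 CPM. Contractile and YAP target genes were higher in 18 of 22 cases and lower in 3 (median 2.42), with Actn1 at 454 ± 10.2 against 32.6 ± 2.42 CPM and Acta2, smooth muscle actin, at 6.54 ± 1.72 against 1.27 ± 0.0965 CPM and 4709 CPM in MEF. In bulk RNA, a few cells with a high level and many cells with a low one cannot be told apart.

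Mesenchymal transcription factors were higher in 30 of 33 tested cases, lower in 2 and not called in 1, with a median of 4.83 (3.94 with members at 0 in a group set at their bound). Summed over the list, however, levels were lower in iGABA, at 321.2 to 323.7 CPM against 467.2 to 643.8 CPM in GAD67, with 2219 to 2284 CPM in MEF libraries. Foxp1, the most abundant member, had the largest fall at 58.7 ± 1.47 against 447 ± 90.9 CPM. Retention of the MEF level was uneven among these factors. Tbx15 was at 58, 60.6 and 54.7 CPM in iGABA, 0.357, 0.504 and 0.423 CPM in GAD67 and 85.5, 88.2 and 91.9 CPM in MEF libraries. Alx4, a limb and skull factor, was at 13.8 ± 0.27 CPM in iGABA beside 21.3 ± 0.702 CPM in MEF. Twist1 and Prrx1, by contrast, were at 2.39 ± 0.279 and 8.45 ± 1.245 CPM in iGABA beside 168 ± 9.33 and 769.5 ± 18.1 CPM in MEF. Hand2 was at 2, 2.29 and 1.75 CPM in iGABA and at 0 in GAD67, at least 76.3-fold higher against 3 counts over the group.

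Imprinted genes were higher in 17 of 28 tested cases, lower in 7 and not called in 4 (median 0.93). Dlk1, a membrane protein of embryonic tissues expressed from the paternal copy, was at 5941, 6144 and 6051 CPM in iGABA, 13, 16 and 16.4 CPM in GAD67 and 1344, 1437 and 1478 CPM in MEF libraries (8.64 ± 0.11 against GAD67). Rtl1, of the same locus, was at 20.4 ± 1.49 against 0.271 ± 0.133 CPM, and Meg3, the maternal noncoding RNA there, at 5219 ± 152 against 2233 ± 33.1 CPM. Peg3 and its neighbour Zim1 were higher as well (2341 ± 71.2 against 258 ± 14.3 CPM and 273 ± 17.8 against 2.52 ± 0.758 CPM). Ndn and Magel2, from the Prader-Willi region, were lower (35.4 ± 1.69 against 179 ± 12.1 CPM and 0.613 ± 0.21 against 11.7 ± 1.41 CPM).

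Epithelial genes were higher in 8 of 12 tested cases, lower in 1 and not called in 3, with a median of 6.77 (4.16 with members at 0 in a group set at their bound). Of the 6 members with at least 50 counts in 3 libraries, 4 were higher. The lower member, Krt15, had 23 counts in iGABA and 44 in GAD67, and its call was lost without iGABA replicate 4 or 5 or GAD67 replicate 7 or 8 (-0.86 to -0.92, adjusted p of 0.0719 to 0.0861), under library size alone, with no filter and in DESeq2. Epcam, an adhesion molecule of epithelia, was at 29.6, 30.1 and 31.4 CPM in iGABA, 0.0766, 0.238 and 0.141 CPM in GAD67 and 0.586, 0.493 and 0.393 CPM in MEF libraries. Cldn3, a tight junction protein, was at 29.4 ± 3.64 against 0.205 ± 0.0202 CPM, and Cdh1, E-cadherin, at 1.73, 1.12 and 1.72 CPM in iGABA and 0 in GAD67. Krt14 was at 0 in both groups, and Krt5 and Trp63 did not pass the filter. Of 19 tested muscle genes, 6 were higher, 5 lower and 8 not called, so 57.9% were called against 80.4% of all tested genes. Tnnt2, a cardiac troponin, was higher at 5.24, 3.13 and 6.5 CPM in iGABA and 0 in GAD67 libraries. Acta1, the most abundant member, was lower at 4.74 ± 0.302 against 15.9 ± 0.983 CPM. The summed level was 16.55 to 20.79 CPM in iGABA and 25.35 to 29.32 CPM in GAD67, with 164.2 to 170.9 CPM in MEF libraries.

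Markers of other brain cells were present at low levels in the sorted cortical cells and varied between their libraries. Hbb-bs, a globin, was at 16.9, 11.2 and 27.9 CPM in GAD67 and at 0, 0.0239 and 0.0313 CPM in iGABA libraries, and all 5 tested red blood cell genes were lower in iGABA (summed 0.0478 to 0.0625 against 18.7 to 48.2 CPM). Ttr, the transthyretin of choroid plexus, was at 45.7, 59.2 and 20.2 CPM in GAD67 and 0, 0.0239 and 0.0625 CPM in iGABA. Neurod6, a marker of glutamatergic cortical neurons, was at 12.4, 9.25 and 21.2 CPM in GAD67 and 0, 0.0239 and 0 CPM in iGABA libraries. Replicate 9 was highest of the GAD67 libraries in the globin and Neurod6 and lowest in Ttr and Sst. Of 22 genes of glutamatergic neurons and dorsal progenitors, 18 were lower in iGABA, 2 higher and 2 not called (median -4.03). Eomes, a factor of dorsal intermediate progenitors, was higher at 269.9, 280.1 and 270.1 CPM in iGABA against 6.49, 5.14 and 9.32 CPM. Of the vesicular glutamate transporters, Slc17a7 ranged from 1.05 to 1.39 CPM over the iGABA libraries against 0.412 ± 0.0856 CPM in GAD67, and Slc17a6 was at 0.098 ± 0.0421 against 1.67 ± 0.382 CPM. The part of such cells in the gene differences was not tested.

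Endothelial and mural genes were lower in 13 of 16 cases and higher in 3 (summed 56.2 to 64.3 against 30.7 to 105 CPM), and Cdh5, a defining cadherin of vessels, was at 0 in all iGABA libraries and at 2.91, 1.48 and 5.65 CPM in GAD67. Of 16 tested immune genes, 3 were higher, 9 lower and 4 not called. With the 6 iGABA and GAD67 libraries alone, only 6 immune genes passed the filter, of which 3 were lower. Most of the 16 were thus tested only because the MEF libraries were in the fit. The summed level of the list was 13.38 to 15.01 CPM in iGABA, 7.183 to 9.43 CPM in GAD67 and 593.3 to 644.3 CPM in MEF libraries. Cd68, the most abundant member, was higher in iGABA (11.72 against 4.908 CPM), and so was Cd14 (1.197 against 0.008835 CPM). The defining microglial members C1qa and Cx3cr1 were at 0 in iGABA libraries and at 0.115 and 0.511 CPM in GAD67, so both groups held little RNA of either gene. Oligodendrocyte lineage genes were 4 higher, 3 lower and 1 not called of 8 tested. Pdgfra, a receptor shared with fibroblasts, was at 152 ± 11.8 against 2.81 ± 1.02 CPM, with 277 CPM in MEF. Olig2, a defining factor of the lineage, was at 0 in iGABA and at 2.17 ± 0.979 CPM in GAD67. Of 8 tested astrocyte genes, 3 were higher and 5 lower, with Gja1, a gap junction protein, at 47.2 ± 6.34 against 3.24 ± 0.268 CPM. Gfap, a defining filament of astrocytes, was at 0.292 ± 0.0626 against 0.707 ± 0.351 CPM (-1.28 on the log2 scale), and its call was lost without iGABA replicate 4 (-1.11, adjusted p = 0.0809) or GAD67 replicate 8 (-0.84, adjusted p = 0.116). Choroid plexus, ependymal and cilia genes were 2 higher, 9 lower and 2 not called of 13 tested.

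Inhibitors of the cell cycle and p53 targets were higher in 18 of 23 cases, lower in 4 and not called in 1, with a median of 2.02. Cdkn1a, the inhibitor p21, was at 535, 515 and 551 CPM in iGABA, 5.85, 8.77 and 5.14 CPM in GAD67 and 326, 337 and 354 CPM in MEF libraries. Ccng1, a p53 target, was at 377 ± 9.79 against 19.9 ± 4.87 CPM, and Phlda3 at 73 ± 1.09 against 1.87 ± 0.155 CPM. Trp53 itself was not called (72.8 ± 3.56 against 74.5 ± 6.23 CPM). Cdkn2a, the locus of the INK4A and ARF inhibitors, was at 2.07 ± 0.559 CPM in iGABA, beside 0.00851 CPM in GAD67 and 11.5 ± 0.825 CPM in MEF.

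Interferon response and antigen presentation genes were higher in 24 of 27 cases, lower in 1 and not called in 2, with a median of 4.71 (4.54 with members at 0 in a group set at their bound). H2-K1 and B2m, which form class I molecules, were at 118, 125 and 120.4 CPM and 139, 138 and 135 CPM in iGABA libraries. In GAD67 libraries they were at 0.97, 1.41 and 0.903 CPM and 1.79, 1.64 and 2.77 CPM, and the MEF means were 132 and 740.2 CPM. Bst2, an antiviral membrane protein, was at 62.4, 64.6 and 61.5 CPM against 0.153, 0.106 and 0.254 CPM. Classic induced transcripts were low in the converted cells relative to MEF, which is not the comparison with GAD67. Ifit1 was at 1.35 ± 0.673 CPM, Isg15 at 2.42 ± 0.489 CPM and Rsad2 at 0.34 ± 0.0953 CPM in iGABA, beside MEF means of 32.6, 47.2 and 12.1 CPM.

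Genes of stress responses were mostly higher. In the unfolded protein and integrated stress response, 19 of 22 were higher, 1 lower and 2 not called (median 1.63). Trib3, a kinase-like target of that response, was at 42.2, 41 and 43.5 CPM in iGABA and 0.357, 0.504 and 0.282 CPM in GAD67 libraries, and Sesn2 at 118 ± 6.58 against 2.37 ± 0.0219 CPM. Among antioxidant genes, 12 of 17 were higher, 3 lower and 2 not called. The metallothioneins Mt1 and Mt2 were at 164, 158 and 175 CPM and 198, 178 and 206 CPM in iGABA libraries and 1.38, 1.91 and 0.988 CPM and 1.51, 1.91 and 0.706 CPM in GAD67 libraries.

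Immediate early and dissociation genes were higher in 17 of 26 cases, lower in 5 and not called in 4 (median 1.84). Arc, which neurons induce with activity, was at 87.4, 83.5 and 98 CPM in iGABA and 1.74, 1.38 and 1.02 CPM in GAD67 libraries, and Atf3 at 19.4 ± 3.83 against 0.161 ± 0.0484 CPM. Npas4, an activity-induced factor specific to neurons, was lower at 2.65, 2.7 and 3.13 CPM against 15.6, 19.1 and 9.37 CPM. Fos, an early gene of activity and of tissue dissociation, was at 46.5, 51.8 and 44.5 CPM against 125, 179.6 and 33.8 CPM and was not called (-1.24, adjusted p = 0.0643). It was called lower without GAD67 replicate 9 (-1.69, adjusted p = 6.14e-05), in DESeq2 (adjusted p = 0.0288) and among genes with at least 50 counts in 3 libraries (adjusted p = 0.0356). Cells from culture were compared with cells fresh from tissue, and the part of that difference in these values was not tested.

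Glycolysis genes were higher in 20 of 21 cases and none was lower (median 1.66). Aldoa and Aldoc, the aldolases, were at 942, 959.9 and 933 CPM and 170.3, 181 and 173 CPM in iGABA and 80.3, 72.9 and 80.4 CPM and 6.36, 6.44 and 5.84 CPM in GAD67 libraries. Tpi1, the triose isomerase, was at 389 ± 1.2 against 50.3 ± 5.75 CPM, and Slc16a3, the lactate exporter, at 44.8 ± 0.906 against 2.17 ± 1.04 CPM. Gapdh and Eno1 have many near-identical copies and low counts here, so their values are uncertain. Nuclear genes of the respiratory chain stayed near the cortical level: 20 of 28 were higher and 8 not called, but the median was 0.40 and the interval of 27 lay within 2-fold. Atp5b, a subunit of the ATP synthase, was at 1146 ± 17.3 against 713 ± 31.1 CPM.

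Mitochondrially encoded genes were higher in 12 of 13 cases (median 1.63), with mt-Nd5, a complex I subunit, at 5853, 5422 and 5848 CPM in iGABA and 1258, 1225 and 1415 CPM in GAD67 libraries and mt-Nd1 not called. Most of them have close nuclear copies, which makes their values uncertain, and leaving them out of the scaling did not move the median difference of all genes (0.02). Cholesterol synthesis and uptake genes were higher in 14 of 26 cases, lower in 3 and not called in 9. Hmgcs1, which starts the mevalonate pathway, was not called (236 ± 9.85 against 231 ± 6.43 CPM).

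RNA-binding and splicing factors of neurons were lower in 18 of 23 cases and higher in 5 (median -1.87). Ptbp2, the neuronal splicing repressor, was at 20.3, 20.6 and 21.3 CPM in iGABA and 424, 403 and 463 CPM in GAD67 libraries. Ptbp1, the form that neurons replace with Ptbp2, was at 243, 259 and 237 CPM against 79.8, 79.1 and 85.2 CPM, with 270.4 CPM in MEF. The first was lower and the second higher in every iGABA library. Esrp1, an epithelial splicing factor, was at 1.2 ± 0.268 CPM in iGABA and 0 in GAD67.

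Chromatin genes were 11 higher, 21 lower and 2 not called of 34 (median -0.53). The neuronal subunits of the BAF remodelling complex, Dpf1 and Actl6b, were at 7.15, 7.57 and 6.44 CPM and 16.2, 17.4 and 13.8 CPM in iGABA and 304, 309 and 291 CPM and 166, 160.2 and 173 CPM in GAD67 libraries. Dnmt3b, a DNA methyltransferase of early embryos, was at 252, 275 and 239 CPM in iGABA against 7.92, 8.08 and 9.37 CPM in GAD67 and 4.15 CPM in MEF. Rest, the repressor of neuronal genes, was at 3.16 ± 1.11 against 14.8 ± 3.75 CPM and 118 CPM in MEF. Of 12 embryonic growth genes, 4 were higher, 6 lower and 2 not called, with Lin28a, an RNA-binding protein of early embryos, at 4.92, 5.13 and 3.88 CPM in iGABA and 0.357, 0.053 and 0.198 CPM in GAD67 libraries and Lin28b at 0.078 ± 0.0402 against 2.17 ± 0.48 CPM. Among 11 tested noncoding RNAs, 5 were higher, 3 lower and 3 not called. Pantr1, a neighbour of a neural POU factor gene, was at 0.0933 ± 0.0437 against 56.4 ± 5.15 CPM.

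Genes of at least 10 CPM in the higher group were ranked among calls whose groups did not overlap, leaving out clone and predicted gene names. The 15 of largest rise were mostly Hox genes. The others were Cox8b, a cytochrome oxidase subunit of muscle (14.4, 11.2 and 18.7 CPM in iGABA), Il10, an anti-inflammatory cytokine (12.1, 11.9 and 12 CPM), Tmem211 (37.6, 34.8 and 38.7 CPM), Dbx1 and Lmx1b. Cox8b and Il10 were at 0 in GAD67 libraries, at least 540.1-fold and 449-fold higher against 3 counts over the group, and near 0 in MEF (means of 0.0219 and 0.0219 CPM). Tmem211 had 1 count over the GAD67 libraries and a mean of 0.0354 CPM in MEF. The 15 of largest fall held 7 transcription factors of forebrain, Nr2e1, Six3, Sp9, Sp8, Pou3f4, Pax6 and Neurod6, with the antisense RNA Six3os1 (0.0247, 0.0239 and 0 against 228, 212 and 233 CPM), whose exons overlap Six3. Fut9, which makes the Lewis x sugar, was at 0.0247, 0.0955 and 0.0313 CPM in iGABA and 72.2, 65.8 and 39.4 CPM in GAD67 libraries, and Slitrk3, an organiser of inhibitory synapses, at 0.247, 0.0239 and 0 CPM against 88.5, 75.9 and 102 CPM. Sntg1, a neuronal syntrophin, was at 0.00824 ± 0.0143 against 12.6 ± 0.496 CPM, and the list also held Adarb2, Sst, Ttr and Hbb-bs.

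Higher and lower genes differed in length on the chromosome. The median span in the count table was 18170 bases over 17748 tested genes with a symbol, 15542 bases over the 2891 genes at least 4-fold higher in iGABA and 36260 bases over the 1752 genes at least 4-fold lower. A span over 100 kb was found in 12.4%, 10% and 31.2% of these sets. These are descriptions, since neighbouring and related genes are not independent.

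Some abundant genes matched closely. Nnat, neuronatin, was at 2947, 3165 and 2829 CPM in iGABA and 3081, 3065 and 2989 CPM in GAD67 libraries, with a 95% interval of the log2 fold change of -0.15 to 0.09 and a mean of 12.5 CPM in MEF. Kif1a, the motor that carries vesicle precursors, was at 634 ± 31.6 against 657 ± 38.9 CPM (-0.21 to 0.11), with a lower mean of 294 CPM in MEF. Ctnnb1, beta-catenin, was at 1032 ± 22.4 against 946 ± 36.3 CPM beside 1031 ± 34.8 CPM in MEF. The sign of the small differences of Nnat and Kif1a changed under scaling by library size alone.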

How the data were processed

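Total RNA of 9 samples was sequenced as strand-marked libraries made by the dUTP method, per the labels' protocols. The authors deposited whole-number read counts per gene, not normalised. Per the submitters' processing notes, BWA 0.7.2, featureCounts and DESeq 1.10.1 were used with mm10, and the sources used here do not give their order, the annotation release or the strand setting. Symbols came from GENCODE vM21 for 35449 of 37224 genes.

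Counts were analysed in R 4.3.3 with edgeR 4.0.16. The filter filterByExpr (minimum count 10, minimum total 15) kept 18085 genes. After TMM scaling, the quasi-likelihood test was fitted to all 9 libraries and read as iGABA minus GAD67, with p-values adjusted over all tested genes (Benjamini-Hochberg) and a call at an adjusted p under 0.05. The same code was first tested on simulated data. SE and 95% intervals come from that fit. Folds against a group at 0 are lower bounds against 3 counts over the group. Ratios for 1 to 3 counts carry 95% counting intervals, and intervals and floors of that kind cover counting error only. DESeq2 1.42.0, other scalings and filters, the 6 libraries alone and leaving out each library were alternatives.

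The gene lists and comparisons were chosen with earlier results of these data known. Named genes were first the 15 largest differences in each direction at 10 CPM or more in the higher group. These were taken among called genes whose groups did not overlap, leaving out clone and predicted gene names. The others were the largest rise, the largest fall and the most abundant member of each list, the 10 most abundant genes of each group and the 10 most abundant with an interval within 1.25-fold. Other list members named were picked after their values were seen. Hoxd4, Slc18a3 and other listed symbols with no entry in the table were not analysed here. Some genes that meet the rule are not reported here.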

Additional observations from a re-analysis of the deposited data

How the results depend on the processing

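Each count of genes past a threshold (higher, lower, at least 2-fold, at least 16-fold, and interval within 2-fold) stayed within 1.5 times its value under every alternative. Scaling by library size alone shifted the median difference over all tested genes from 0.02 to 0.22 on the log2 scale and the share of higher genes among calls from 51.2% to 58.6%, so small differences hold relative to TMM scaling. It also turned the sign of Nnat (0.162), mt-Nd1 (0.155), Chd4 (0.072), Kif1a (0.142), Prkar1a (0.144) and Ncl (0.009). Ddb1, at 0.004 on the log2 scale, turned to -0.015 under RLE size factors, -0.002 with no filter or with at least 50 counts in 3 libraries, -0.006 with the 6 libraries alone and -0.016 in DESeq2. With a library left out, the log2 fold change ranged from -0.013 to 0.032 for Ddb1, from -0.072 to 0.012 for Nnat and from -0.073 to 0.005 for mt-Nd1. Of 894 called list members, library size alone lost 21 and reversed 3 (Rab3a, Scg3 and Dlg4), DESeq2 lost 2, omitting the filter lost 13, and leaving out a library lost 11 to 20. Members not called were gained as calls too, 41 under library size alone, 7 in DESeq2 and 1 to 19 with a library left out, the most without GAD67 replicate 9. With at least 50 counts in 3 libraries, which leaves fewer members, medians went from -1.94 to -4.456 for GABA receptors, from -0.904 to -1.900 for potassium channels, from 1.093 to 3.151 for the oligodendrocyte list, from 1.713 to 5.305 for cerebrospinal-fluid-contacting neurons and from -0.163 to -0.677 for embryonic growth genes. With the 6 libraries alone, fewer members of some lists passed the filter. The lower immune members went from 9 of 16 tested to 3 of 6, and the higher muscle members from 6 of 19 to 3 of 8. Library size alone moved the medians of the presynaptic (-0.329), granule (0.533), neural progenitor (-0.060) and chromatin lists (-0.335) from -0.523, 0.341, -0.253 and -0.528. The median of the embryonic growth list changed sign under library size alone (0.031) and without GAD67 replicate 9 (0.038), that of the other transmitter list with the 6 libraries alone (-1.217) and without GAD67 replicate 8 (-0.028), and that of the muscle list with the 6 libraries alone (-0.675) and without iGABA replicate 6 (-0.074). For genes whose calls or signs changed, the cause was not tested. Mitochondrially encoded genes have no value in the scaling that leaves them out, and the promoter comparison was not run because promoters were found for under 80% of genes. No paired analysis was possible because the groups share no replicate numbers.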
